A study of Mus musculus with 3 samples.

Results

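Interferon-high blood monocytes were 233 single-cell barcodes in the blood of tumor-bearing mice that carried monocyte transcripts together with a marked load of Ifit and Rsad2 transcripts. They were chosen in the blood library among barcodes that held 1000 or more unique molecules (UMIs) and 400 or more genes, with mitochondrial UMIs no higher than 10%. A first sum, of Ly6c2, Ccr2, Vcan, Fn1, F13a1 and Chil3, had to reach 3 UMIs, and a second sum, of Ifit1, Ifit2, Ifit3, Ifit3b and Rsad2, had to reach 5 UMIs. They were 233 of the 4279 blood barcodes that passed the first sum (5.45%, exact binomial 95% interval 4.78 to 6.17), of 5550 blood barcodes that passed the filters (4.20%), and of 13284 in the whole series. The contrast was the 3657 barcodes that passed the first sum with 0 or 1 UMI in the second, and 389 barcodes with 2 to 4 UMIs lay between.

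The series holds 3 libraries of sorted myeloid cells from C57BL/6J mice with subcutaneous B16-F10 melanoma, a transplantable mouse tumor line, with 1 library per group. The blood library and 1 tumor library came from wild-type control mice. The other tumor library is labelled FoxP3 DTR and depleted of regulatory T (Treg) cells; FoxP3 DTR mice express a diphtheria toxin receptor under control of Foxp3, so genotype and depletion cannot be told apart. The sort kept live CD45+ cells with CD11b and/or CD11c and removed cells with CD90, NK1.1, Ly6G, B220 or SigF, and the sources used here give neither the age nor the number of animals in a library. No library without a tumor was analysed here. With 1 library per group there is no replicate, and no test was made. The intervals given are exact 95% counting intervals. They do not hold the spread between animals or, for pooled levels, the spread between barcodes.

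Classical Ly6C-high monocytes leave the bone marrow, circulate for a short time and enter inflamed tissue and tumors, where they give rise to macrophages and monocyte-derived dendritic cells. Type I and type III interferons act through a complex that holds STAT2 and IRF9 and binds interferon-stimulated response elements, and interferon gamma acts at gamma-activated sites. The genes switched on in this way, the interferon-stimulated genes, encode sensors of foreign nucleic acid, blockers of viral replication, antigen-presentation proteins, chemokines and inhibitors of the response itself.

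The label rests on the 5 marker genes Ifit1, Ifit3, Rsad2, Isg15 and Cxcl10, and the stretch of 250 bases before the start of each is shown because all 5 hold the core of an interferon-stimulated response element. The sequences were read from the RefSeq promoter table (GRCm38.p6) at chr19:34640639-34640888 (plus strand), chr19:34583279-34583528 (plus), chr12:26456453-26456702 (minus), chr4:156200819-156201068 (minus) and chr5:92348890-92349139 (minus). Each is written 5′ to 3′ along its gene, and capitals mark the motif searched, which is TTTC, 2 bases of any kind and TTTC again, or on the other strand GAAA, 2 bases and GAAA.
Ifit1: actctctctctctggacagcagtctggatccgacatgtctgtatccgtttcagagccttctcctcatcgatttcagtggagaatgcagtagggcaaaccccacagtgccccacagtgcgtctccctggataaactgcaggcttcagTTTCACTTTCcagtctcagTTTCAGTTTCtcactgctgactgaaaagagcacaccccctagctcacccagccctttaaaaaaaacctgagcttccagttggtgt
Ifit3: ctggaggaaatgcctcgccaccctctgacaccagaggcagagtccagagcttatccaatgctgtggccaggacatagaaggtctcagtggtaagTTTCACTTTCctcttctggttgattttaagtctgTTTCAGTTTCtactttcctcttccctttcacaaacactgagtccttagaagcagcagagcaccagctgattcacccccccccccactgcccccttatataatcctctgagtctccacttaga
Rsad2: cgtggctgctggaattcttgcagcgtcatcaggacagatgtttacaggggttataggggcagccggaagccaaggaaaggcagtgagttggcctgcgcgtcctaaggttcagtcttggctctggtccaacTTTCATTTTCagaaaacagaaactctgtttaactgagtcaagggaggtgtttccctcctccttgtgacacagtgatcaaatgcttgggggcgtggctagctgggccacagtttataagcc
Isg15: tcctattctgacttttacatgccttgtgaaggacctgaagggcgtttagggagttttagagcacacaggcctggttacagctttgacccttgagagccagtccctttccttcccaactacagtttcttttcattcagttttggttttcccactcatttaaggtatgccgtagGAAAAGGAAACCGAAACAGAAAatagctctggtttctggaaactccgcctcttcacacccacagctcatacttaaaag
Cxcl10: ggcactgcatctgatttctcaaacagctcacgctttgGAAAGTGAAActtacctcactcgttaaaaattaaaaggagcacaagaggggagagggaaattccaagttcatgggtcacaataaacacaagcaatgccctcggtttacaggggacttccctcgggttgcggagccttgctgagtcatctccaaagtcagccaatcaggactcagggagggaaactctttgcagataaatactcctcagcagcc
Ifit1 and Ifit3 each held a tandem pair of matches, in Ifit1 with the last base 95 and 76 bases before the start and in Ifit3 147 and 113 bases before it. Rsad2 held 1 match, 111 bases before the start. Isg15 held 3 matches that overlap one another, the nearest 57 bases before the start. The match of Cxcl10 lay farthest out, 204 bases before the start.

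Over windows of 300 bases (250 before and 50 after the start), 3.99% of the 27025 genes in the promoter table held this motif. Among genes at least 2-fold higher in interferon-high monocytes and outside the rule, 142 of 175 could be matched to a promoter, and 46 of the 142 (32.4%) held it. Among measured genes that differed by less than 2-fold, 139 of 3209 matched genes (4.33%) held it. The gamma-activated motif TTCNNNGAA, which reads the same on both strands and can share bases with the first motif, was in 9.55% of all genes of the table, in 16 of the 142 higher genes (11.3%) and in 7.98% of those under 2-fold. Irf7, the master factor of the later interferon response, and Ly6c2 held neither motif in this window. Of the 5 genes of the second sum, 4 held the first motif and Ifit2 did not. A match is a description of letters and does not show that a factor binds there.

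The second sum was spread over a long tail and not a separate group, as the plot of the second sum shows. Of the 4279 monocyte barcodes, 3019 (70.6%) had no UMI of its 5 genes. Interferon-high barcodes had 5 to 53 UMIs with a median of 10; 126 of the 233 (54.1%) had 10 or more and 49 (21.0%) had 20 or more. Just inside the threshold lay 36 barcodes with exactly 5 UMIs and just outside it 71 with exactly 4. Outside the rule, Isg15 stood at 909 CPM (768 to 1069; the pooled UMIs of a set scaled to a common total of 1000000) in the former and 1014 CPM (904 to 1133) in the latter. Ifi27l2a was higher just inside (3967 against 3208 CPM) and H2-Ab1 lower (3294 against 3951 CPM), and Ifit1bl1 stood at 93.4 (52.3 to 154) against 35.9 CPM (17.9 to 64.2). With 36 and 71 barcodes a few can set such a gap, and the intervals of pooled UMIs do not hold the spread between barcodes. The interferon-high set is the upper range of a graded measure. On the first sum, 4 of the 233 had exactly 3 UMIs, and 4 barcodes with exactly 2 UMIs there had 5 or more in the second sum.

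**Figure D1:**
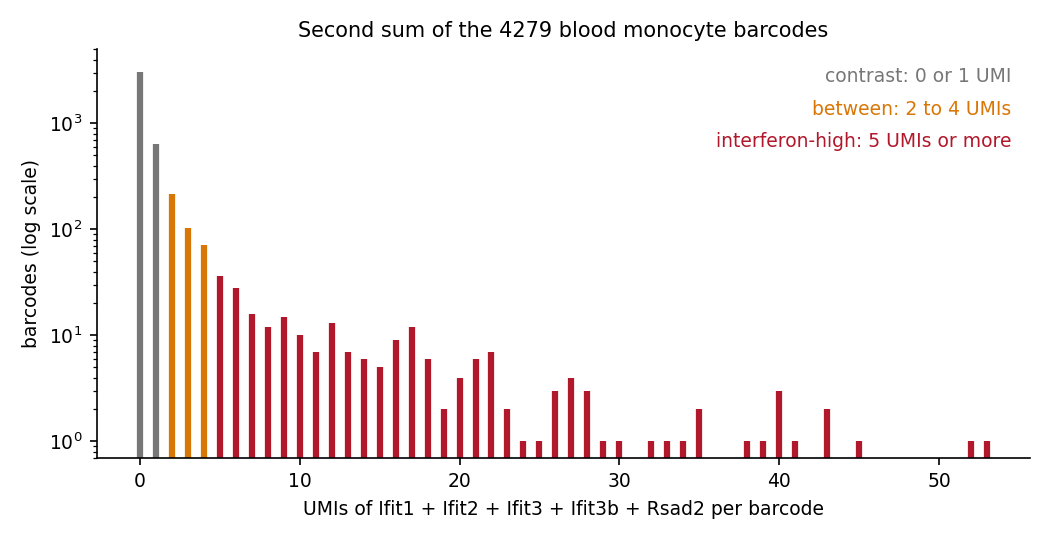
Number of blood monocyte barcodes (log scale) by their UMIs of Ifit1, Ifit2, Ifit3, Ifit3b and Rsad2; grey bars are the contrast, orange bars the barcodes between and red bars the interferon-high barcodes. The numbers fall from 3019 barcodes with 0 UMIs to single barcodes beyond 40, with no gap at the threshold of 5.

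Depth did not separate the sets by much. The median was 4023 UMIs and 1523 genes in interferon-high barcodes, 3761 UMIs and 1496 genes in the contrast, and 4047 UMIs and 1565 genes in the barcodes between. Mitochondrial UMIs had medians of 2.20%, 2.40% and 2.32%. The pooled UMIs behind each level were 1012044 for the interferon-high set and 14270381 for the contrast. Of the barcodes that failed the first sum, 12 of 1271 (0.944%, 0.489 to 1.64) reached 5 UMIs in the second. The blood library shared 30 barcode sequences with the control tumor and 22 with the Treg-depleted tumor, where random draws from the kit's list would give 28.8 and 29.4.

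The rule fixed the levels of its own genes, which are given as a description. Ifit3, a member of the IFIT family of antiviral proteins, stood at 1284 CPM in interferon-high barcodes and 17.8 CPM in the contrast, and 228 of the 233 barcodes (97.9%) had a UMI of it. Ifit1, which binds viral RNA caps, stood at 797 against 7.99 CPM with a UMI in 80.3% of barcodes. Rsad2, which encodes the antiviral enzyme viperin, stood at 416 against 9.74 CPM with a UMI in 69.5%. Ifit3b (374 against 5.05 CPM) is a near-identical copy of Ifit3, and Ifit2 stood at 287 against 4.13 CPM; how reads were divided between such copies upstream bears on each single value. Median UMIs per barcode were 5 for Ifit3, 2 for Ifit1 and 1 for Ifit2, Ifit3b and Rsad2, so no single gene of the sum marked every barcode. Ifit1, Ifit2, Ifit3 and Ifit3b lie in one cluster on chromosome 19, between 34550694 and 34650009 (GRCm38).

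Most classical monocyte genes differed by less than 2-fold between the sets. Ly6c2, Ccr2, Chil3 and Fn1 are genes of the first sum, which both sets had to pass, so their presence was set by the rule. Ly6c2, which encodes the surface marker Ly6C, stood at 2098 CPM (2009 to 2189) against 1118 CPM (1101 to 1136), a difference of 0.91 on the log2 scale, with medians of 7 and 3 UMIs per barcode. Ccr2, the receptor that draws monocytes out of the bone marrow, differed by 0.12 (1502 against 1377 CPM), and Chil3, a chitinase-like lectin, by -0.14 (1868 against 2060 CPM). Fn1, fibronectin, was slightly lower (397 against 504 CPM). Among 20 measured classical monocyte genes outside the first sum the median log2 difference was 0.03. Of these, 2 were 2-fold higher, among them Ms4a4c, which is also on the interferon lists (2.82-fold), and none was 2-fold lower. Lyz2, lysozyme, had a UMI in 100% and 99.4% of the barcodes.

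Interferon-stimulated genes outside the rule were mostly higher, and each of the families listed held some that were. A gene counted as measured when the mean of its 2 CPM values was at least 25, and as higher or lower at a 2-fold difference. Of 98 genes on 9 lists, 75 were measured; 59 were higher and 0 lower, with a median log2 difference of 1.74. Over all 4181 measured genes outside the rule, 175 (4.19%) were higher and 30 (0.718%) lower, with a median of -0.11. These counts describe the same contrast that chose the barcodes, so nothing further is read from them. A gene that reached the minimum only through the interferon-high set had to differ. Among the 60 list genes with at least 25 CPM in the contrast itself, 44 were higher, 0 lower, and the median was 1.72. Over all 4260 genes outside the rule with at least 25 CPM in the contrast, 111 were higher and 57 lower, with a median of -0.13. The scatter of all measured genes shows the lists as a band above the diagonal.

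**Figure D2:**
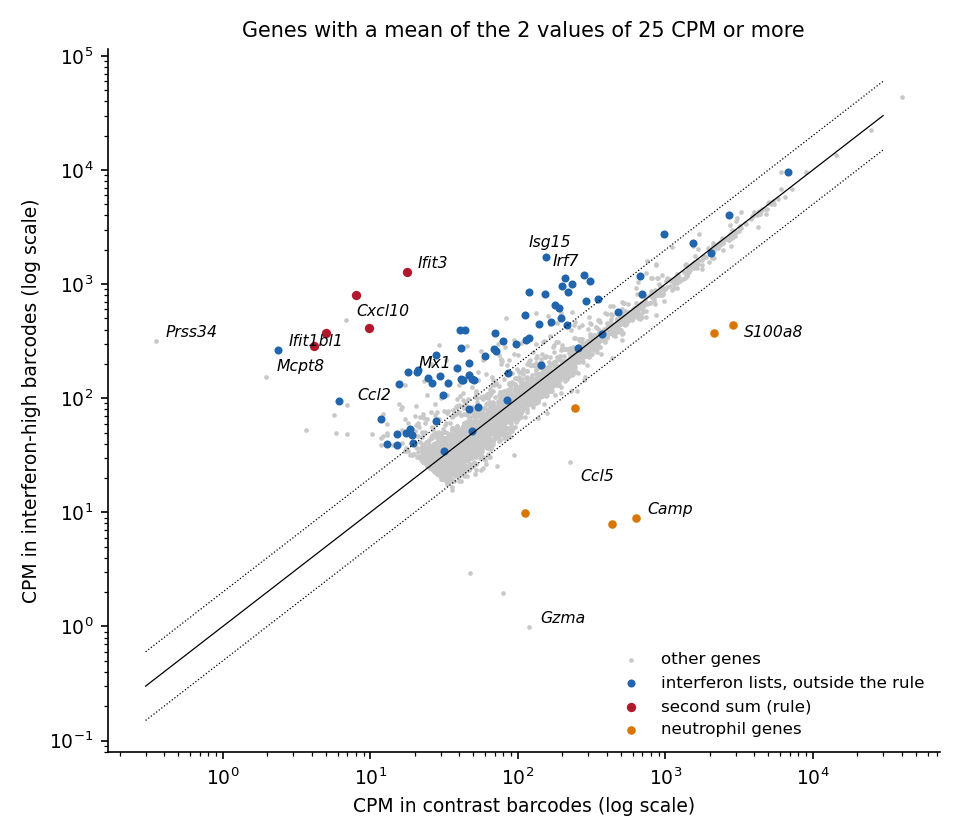
Level of each measured gene in interferon-high (vertical) against contrast barcodes (horizontal), in CPM on log scales; the solid line marks equal levels and the dotted lines 2-fold differences. Blue points are the 75 measured genes of the interferon lists outside the rule, 59 of them above the upper dotted line; Prss34 and Mcpt8 at the upper left come from 1 barcode.

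The ISG15 system, which attaches the ubiquitin-like protein ISG15 to other proteins, was higher in all 6 of its measured genes (median log2 difference 2.51). Of these 6, only 4 had at least 25 CPM in the contrast itself. Isg15 itself stood at 1716 against 155 CPM, a log2 difference of 3.47 (3.38 to 3.56), and 96.6% of interferon-high barcodes had a UMI of it against 33.9% of the contrast. Usp18, which removes ISG15 and also dampens signalling at the interferon receptor, stood at 400 against 43.6 CPM (3.20). Herc6, the main ISG15 ligase of mice, stood at 169 against 20.6 CPM (3.04), and the conjugating enzyme gene Ube2l6 at 236 against 59.6 CPM (1.99). Uba7, the activating enzyme, was the least different of those named (40.5 against 19.5 CPM).

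Sensors of foreign nucleic acid were higher in 5 of 7 measured genes, and in 4 of the 6 with at least 25 CPM in the contrast. The RNA helicase sensors Ifih1 (MDA5) and Ddx58 (RIG-I) stood at 274 against 41.4 CPM (2.72) and 151 against 24.7 CPM (2.61). Dhx58, which tunes them, differed by 1.74 and Zbp1, a sensor of Z-form nucleic acid, by 1.88. Eif2ak2, the kinase PKR that halts translation, differed by 1.52. All 5 measured oligoadenylate synthetase genes, whose products activate RNA decay or regulate RIG-I, were higher: Oasl1 stood at 93.9 against 6.10 CPM (3.94), Oasl2 at 536 against 112 CPM (2.26) and Oas3 at 183 against 38.5 CPM (2.25). Only 3 of these 5 genes had at least 25 CPM in the contrast itself.

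Antiviral effectors and restriction factors were higher in 16 of 23 measured genes (median 1.36), and in 11 of the 18 with at least 25 CPM in the contrast. Ifit1bl1, a relative of Ifit1 in the same cluster, stood at 263 against 2.38 CPM, a log2 difference of 6.79 (6.27 to 7.35), the largest of the listed interferon genes; reads shared with its relatives could touch this value. Transcripts of Mx1 stood at 170 against 18.1 CPM (3.23), and those of the nucleotide kinase gene Cmpk2, a neighbour of Rsad2, at 176 against 21.0 CPM (3.07). The 4 most abundant in the contrast differed by less than 2-fold: Ifitm3, which blocks viral entry, stood at 9658 against 6774 CPM (0.51), Ifi27l2a differed by 0.58, Ly6e by 0.57 and Ifitm2 by -0.13. The next, Ms4a4c, differed more (2757 against 976 CPM), with a UMI in 100% and 86.6% of the barcodes. Bst2, tetherin, stood at 740 against 350 CPM (1.08).

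The IFI200 family, whose members bind DNA in the nucleus or cytoplasm, was higher in all 7 measured genes, with differences from 1.80 (Mndal) to 3.29 (Ifi205, 398 against 40.7 CPM). Ifi204 had a UMI in 95.7% of interferon-high barcodes and in 57.2% of the contrast. The guanylate-binding proteins and immunity-related GTPases, which attack the membranes of intracellular pathogens, were higher in all 8 measured genes (median 2.26): Gbp2 stood at 241 against 27.9 CPM, Gbp7 at 133 against 15.6 CPM, Ifi47 at 852 against 119 CPM and Irgm1 at 320 against 78.9 CPM. Only 5 of these 8 had at least 25 CPM in the contrast itself. All 6 measured PARP-family genes were higher, from 1.33 to 2.01, with Parp14 at 260 against 70.7 CPM, and 4 of the 6 had at least 25 CPM in the contrast. Of the Schlafen genes, 3 of 4 were higher, and Slfn2, the most abundant, differed by 0.80. The families hold near-identical copies, so single members are less certain than the families.

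**Figure D3:**
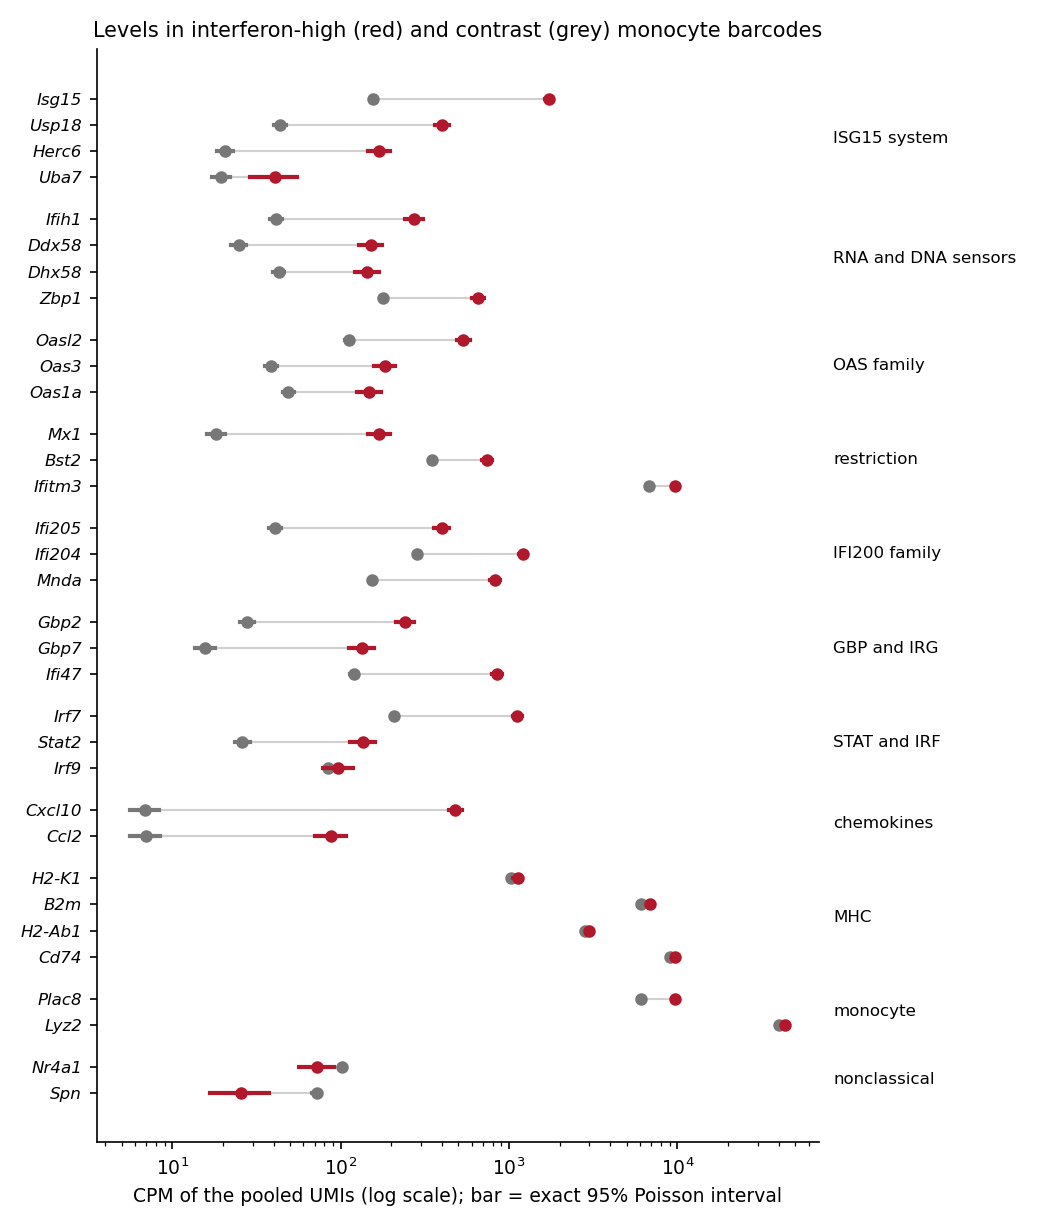
Levels of selected genes, grouped by role, in interferon-high (red) and contrast (grey) blood monocyte barcodes, in CPM of the pooled UMIs on a log scale with exact 95% Poisson intervals. The points lie far apart for Isg15, Cxcl10 and Mx1 and close together for the MHC genes and Irf9.

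Among transcription factors of the response, 3 of 9 measured genes were higher. Irf7 stood at 1121 CPM (1057 to 1189) against 208 CPM (201 to 216), a difference of 2.43, and 92.7% of interferon-high barcodes had a UMI of it against 45.7%. Stat2 was also among them (135 against 26.1 CPM, 2.38). Irf9, its partner in the DNA-binding complex, differed by 0.20 (-0.11 to 0.50), Irf1 by 0.63, Irf5 by 0.10 and Irf8, a factor of the monocyte and dendritic lineages, by -0.03. Of 8 measured genes for interferons, receptors, kinases and feedback, only Socs1, which inhibits the JAK kinases, was 2-fold higher (52.4 against 3.64 CPM, 3.85). Socs1 reached the minimum level only through the interferon-high set, and 0 of the 7 genes with at least 25 CPM in the contrast were higher. The receptor gene Ifnar2 differed by 0.11 and Jak1 by 0.01, and Ifngr1 was lower (516 against 735 CPM, -0.51). Ifnb1 had 1 UMI among the 233 barcodes and 0 in the contrast.

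Cxcl10, the chemokine that attracts CXCR3-bearing T and NK cells, had the largest difference of 5 measured chemokine genes. Cxcl10 and Ccl2 reached the minimum level only through the interferon-high set. Of the 3 chemokine genes with at least 25 CPM in the contrast, 0 were higher and 1 lower. Cxcl10 stood at 480 CPM (438 to 525) against 6.87 CPM (5.58 to 8.37), a log2 difference of 6.13. Its UMIs were unevenly spread: 92 of the 233 barcodes (39.5%) had at least 1, the upper quartile was 2 and the highest barcode 26, whereas 37 of 3657 contrast barcodes (1.01%) had any. Ccl2, the ligand of CCR2, stood at 87.9 against 6.94 CPM (3.66) with a UMI in 20.2% and 2.19%; 18.0% of its UMIs in the set came from 1 barcode. Cxcl9, the other interferon-driven CXCR3 ligand, had 25 UMIs, 21 of them in 1 barcode. Ccl6 and Ccl9, chemokines that monocytes make at rest, differed by -0.20 and 0.35.

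The 92 barcodes with a Cxcl10 UMI were also higher in the other listed genes than the 141 without one, at a like depth (medians 3956.5 and 4025 UMIs). The median log2 difference of the 75 interferon genes from the contrast was 2.06 in the former and 1.54 in the latter. Irf7 stood at 1415 CPM (1299 to 1540) and 942 CPM (868 to 1021), and Ccl2 at 182 CPM (142 to 231) and 30.2 CPM (18.2 to 47.2). The MHC class II gene H2-Ab1 went the other way, at 1723 and 3725 CPM. The split uses a readout of the same cells and is a description.

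The listed interferon genes increased in steps with the second sum as a median, and Cxcl10 and Ccl2 increased late. Not every gene outside the rule did so. Ccl6 stood at 1156, 1141 and 1089 CPM at 0, 1 and 2 to 4 UMIs, 974 at 5 to 9 and 1034 at 10 or more. The median level of the 75 interferon genes was 61.0 CPM at 0 UMIs of the second sum, 87.1 at 1, 121 at 2 to 4, 185 at 5 to 9, 293 at 10 to 19 and 348 at 20 or more. Isg15 was already higher at 2 to 4 UMIs (575 CPM, 540 to 612) than at 0 (133 CPM, 126 to 140). Cxcl10 stood at 5.65 CPM at 0 UMIs, 12.3 at 1 and 10.5 at 2 to 4, then at 59.6 (39.3 to 86.7) at 5 to 9, 455 (387 to 531) at 10 to 19 and 1444 (1285 to 1617) at 20 or more. Ccl2 stood at 6.34, 9.63 and 6.39 CPM in the first 3 steps and at 26.5, 116 and 174 CPM in the last 3. Ly6c2, a gene of the first sum, stood at 1109, 1161 and 1287 CPM and then at 1897, 2088 and 2554 CPM. H2-Ab1 had its highest level between, 4659 CPM at 2 to 4 UMIs, and its lowest, 1748 CPM, at 20 or more. In the 22 interferon-high barcodes with markers of other lineages H2-Ab1 stood at 7721 CPM, and their part in this pattern was not tested.

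**Figure D4:**
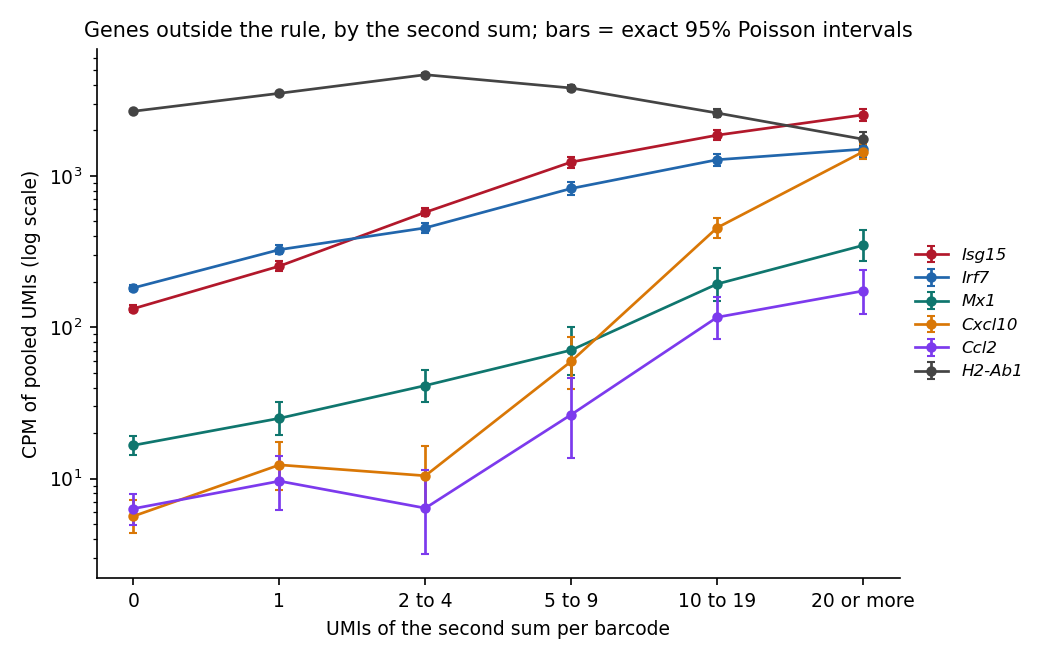
Levels of 6 genes outside the second sum (CPM of pooled UMIs, log scale, exact 95% Poisson intervals) in blood monocyte barcodes sorted by their UMIs of the second sum. Isg15, Irf7 and Mx1 increase over every step, Cxcl10 (5.65, 12.3 and 10.5 CPM) and Ccl2 (6.34, 9.63 and 6.39 CPM) stay low at 0, 1 and 2 to 4 UMIs and are higher from 5 UMIs, and H2-Ab1 peaks at 2 to 4 UMIs.

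For single barcodes, UMIs of 44 list genes that stood under 100 CPM in the contrast were summed and divided by depth. The sum had a median of 68.5 per 10000 UMIs in interferon-high barcodes, 28.8 in those between and 15.4 in the contrast. Of the 233 barcodes, 85.0% lay above the 95th percentile of the contrast (36.1), as did 34.7% of those between. The lowest interferon-high barcode had 13.7, inside the range of the contrast, so the sets overlapped. Choosing genes by a low contrast level held this sum low in the contrast. Over all 98 list genes, the medians were 4.76% of UMIs in interferon-high barcodes, 2.97% in those between and 2.20% in the contrast. By that measure, 76.4% of interferon-high barcodes and 26.2% of those between lay above the 95th percentile of the contrast.

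Thinning every barcode to 1000 UMIs kept the order. After it, 71.7% of interferon-high barcodes (65.4 to 77.4) and 13.3% of the contrast (12.2 to 14.5) had an Isg15 UMI, and 25.3% (19.9 to 31.4) and 0.328% (0.170 to 0.572) had a Cxcl10 UMI. No barcode was left out, since all had at least that many. As a measure of free RNA, barcodes of the same library that failed the first sum and carried B cell markers had an Isg15 UMI in 2.63% (2 of 76, median depth 2113 UMIs) and a Cxcl10 UMI in 0 of 76, which allows up to 4.74% by the exact interval. Barcodes with NK markers had an Isg15 UMI in 1.56% (2 of 128, median depth 1456 UMIs). Those with neutrophil markers had one in 16.8% (19 of 113, median depth 1404 UMIs), above the 13.3% of the contrast. Those with nonclassical markers that failed the first sum had one in 6.15% (37 of 602). Whether any of these barcodes expressed Isg15 themselves was not tested, so they set no single level of free RNA for Isg15. The limit of 4.74% lies above the Cxcl10 share of the contrast, so that share could not be told apart from free RNA by the B cell barcodes. Before thinning, 26 of the 98 Cxcl10 UMIs of the contrast were in 1 barcode.

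Antigen presentation differed less than the antiviral families. Of 16 measured genes of MHC class I and its peptide loading, 3 were 2-fold higher (median 0.50): Nlrc5, the activator of class I genes (44.5 against 11.9 CPM, 1.90), the nonclassical gene H2-T22 (1.36) and the peptide transporter gene Tap1 (1.26). Nlrc5 reached the minimum level only through the interferon-high set. The abundant H2-D1, H2-K1 and B2m differed by 0.11, 0.13 and 0.18. None of 6 measured MHC class II genes reached 2-fold, and H2-Ab1, H2-Aa and Cd74 differed by 0.07, 0.07 and 0.09. Genes for other signals were higher singly: Il15 (a log2 difference of 2.34), which sustains NK and memory T cells, Cd40 (88.9 against 27.7 CPM) and Lgals9, galectin-9 (171 against 53.7 CPM). The inflammatory gene Il1b differed by -0.75, with 37 UMIs in the interferon-high set, and its difference ran from -1.14 to -0.01 over alternative settings. Nfkbia differed by 0.28, and 15 ribosomal protein genes had a median of -0.05.

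Interferon-high barcodes occurred in like shares among MHC class II-low and class II-high monocytes, and at a lower share among those with nonclassical markers. They were 5.49% (170 of 3094; 4.72 to 6.36) of monocyte barcodes with under 10 UMIs of H2-Aa, H2-Ab1 and H2-Eb1 and 5.32% (63 of 1185; 4.11 to 6.75) of those with more. They were 3.39% (27 of 797; 2.24 to 4.89) of barcodes with at least 3 UMIs of Nr4a1, Ace, Treml4, Eno3 and Spn and 5.92% (206 of 3482; 5.16 to 6.75) of the rest. Among barcodes with markers of other lineages they were 3.06% (22 of 718, 1.93 to 4.60), and 68.2% of these 22 were class II-high. The part of such barcodes in the class II shares was not tested. Of 12 measured nonclassical monocyte genes 0 were higher and 2 lower (median -0.53): Spn, which encodes CD43 (25.7 against 72.0 CPM), and Eno3 (30.6 against 63.3 CPM). Klf4, a factor needed for monocyte differentiation, was also lower (74.1 against 158 CPM, -1.09). By the first sum, the share was 1.86% at 3 to 9 UMIs, 5.67% at 10 to 19 and 7.49% at 20 or more, where the median depth was 3298.5, 3771 and 4020.5 UMIs; the part of depth in this was not tested.

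Most of the smallest ratios, and those of Prss34 and Mcpt8 among the largest, belonged to genes that mark other cell types. Prss34 and Mcpt8, basophil proteases, had log2 differences of 9.83 and 6.29, but 1 barcode held 100% and 99.4% of their UMIs in the set. Among the smallest were granule genes of neutrophils and a cytotoxic gene of NK cells: Camp stood at 8.89 against 638 CPM, Ngp at 7.90 against 436 CPM, S100a8 at 440 against 2879 CPM and Gzma at 0.988 against 120 CPM. At least 5 UMIs of neutrophil markers were in 5 of 233 interferon-high (2.15%) and 149 of 3657 contrast barcodes (4.07%), and of NK markers in 1 (0.429%) and 62 (1.70%). Conventional dendritic cell markers were the most frequent, with at least 5 UMIs in 13 (5.58%) and 394 (10.8%). With T cell and melanocyte markers not counted, markers of at least 1 other lineage reached 5 UMIs in 22 (9.44%) and 614 (16.8%). Of 8 T cell markers, 5 were at 0 in the interferon-high set, and Cd3e was at 0 in both sets. Of 10 NK markers, 5 were at 0 in the interferon-high set, Ncr1 among them, whereas Klrk1 was higher there (a log2 difference of 1.39). Of 8 neutrophil markers, S100a8 and S100a9 left aside, only Ltf was at 0 in the interferon-high set. Of 8 melanocyte lineage genes of the tumor line, 7 were at 0 in the interferon-high set and 6 in the contrast, with Mlana and Tyrp1 at 0 in both.

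Without the barcodes of other lineages, 211 interferon-high and 3043 contrast barcodes remained, an alternative chosen after seeing the data. The interferon genes moved little: Isg15 differed by 3.49, Irf7 by 2.46 and Cxcl10 by 6.04. S100a8, which was not among the markers used to leave barcodes out, differed by -0.43 in place of -2.71, and Camp, which was, by -0.21 in place of -6.16. The chemokine gene Ccl5, which NK and T cells express strongly, differed by 0.41 (-0.26 to 1.01) in place of -3.02. Cd244, Klf4 and Pglyrp1 kept differences of -1.14, -0.95 and -0.98.

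Outside the fixed lists, several genes with a large difference were of known antiviral or immune function. Phf11d, Phf11a and Phf11b, near-identical relatives in one gene group, differed by 3.33, 2.93 and 2.60, and Isg20, an RNA exonuclease gene, by 2.96 (201 against 25.9 CPM). Fcgr1, the high-affinity IgG receptor, stood at 556 against 133 CPM (2.06) and had a UMI in 82.4% and 35.5% of barcodes. Fgl2, a secreted or membrane-bound prothrombinase, stood at 298 against 73.4 CPM (2.02), and Il18 at 165 against 46.4 CPM (1.83). Phf11b, Fcgr1, Fgl2 and Il18 were chosen after their values were seen. In all, 116 of the 175 genes at least 2-fold higher were on none of the 9 interferon lists. Of the 175, 111 had at least 25 CPM in the contrast itself.

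The same 2 sums picked barcodes in both tumors, where the separation over the interferon genes was smaller; their median level in the contrast was 69.4 CPM in blood, 67.7 CPM in the control tumor and 70.1 CPM in the Treg-depleted tumor. By UMI number, 531 of 2885 control tumor barcodes (18.4%) and 460 of 3097 Treg-depleted tumor barcodes (14.9%) qualified. A fixed UMI number favours deep barcodes: in the control tumor the picked ones had a median of 10881 UMIs and the contrast 6246, against 4791.5 and 4374 in the Treg-depleted tumor. With at least 10 UMIs of the second sum per 10000, the shares were 6.33% (5.62 to 7.10) in blood, 8.73% (7.73 to 9.82) in the control tumor and 15.9% (14.6 to 17.3) in the Treg-depleted tumor. After thinning to 1000 UMIs, 5.21%, 6.79% and 12.2% kept at least 2 UMIs. The first sum also passed unlike cells. C1qa, a macrophage gene, stood at 16.8 and 8.41 CPM in the picked and contrast barcodes of blood. In the control tumor it stood at 1657 and 1407 CPM, and in the Treg-depleted tumor at 183 and 313 CPM. The libraries differ in tissue, digestion, cell content, depth and UMI minimum (1000, 3490.3 and 1565 UMIs). The differences between them cannot be told apart from these.

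By the rate per 10000 UMIs, where the contrast had under 2, the median log2 difference of the listed interferon genes was 1.79 in blood (60 of 75 measured genes 2-fold higher), 1.18 in the control tumor (44 of 72) and 1.35 in the Treg-depleted tumor (51 of 76). In the same order, among list genes with at least 25 CPM in the contrast, 44 of 59, 35 of 61 and 39 of 64 were higher. By UMI number the median was 1.74, 0.58 and 1.17. Of the measured list genes, 59 of 75, 14 of 69 and 49 of 74 were then higher. Over all measured genes outside the rule by UMI number, 4.19%, 0.908% (36 of 3964) and 2.91% (114 of 3915) were higher. That share was not counted by rate. Cxcl10 stood at 516 CPM in the contrast of the control tumor and 220 CPM in that of the Treg-depleted tumor, so it reached 636 and 931 CPM in the picked barcodes with log2 differences of 0.30 and 2.08. Ccl2 stood at 1489 and 3600 CPM in the tumor contrasts and differed by 0.54 and -0.25. Isg15 stood at 1716, 2198 and 3509 CPM in the picked barcodes of blood, control tumor and Treg-depleted tumor, over 155, 704 and 800 CPM. Irf7 was highest in blood, at 1121 CPM, against 570 and 447 CPM in the picked tumor barcodes.

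**Figure D5:**
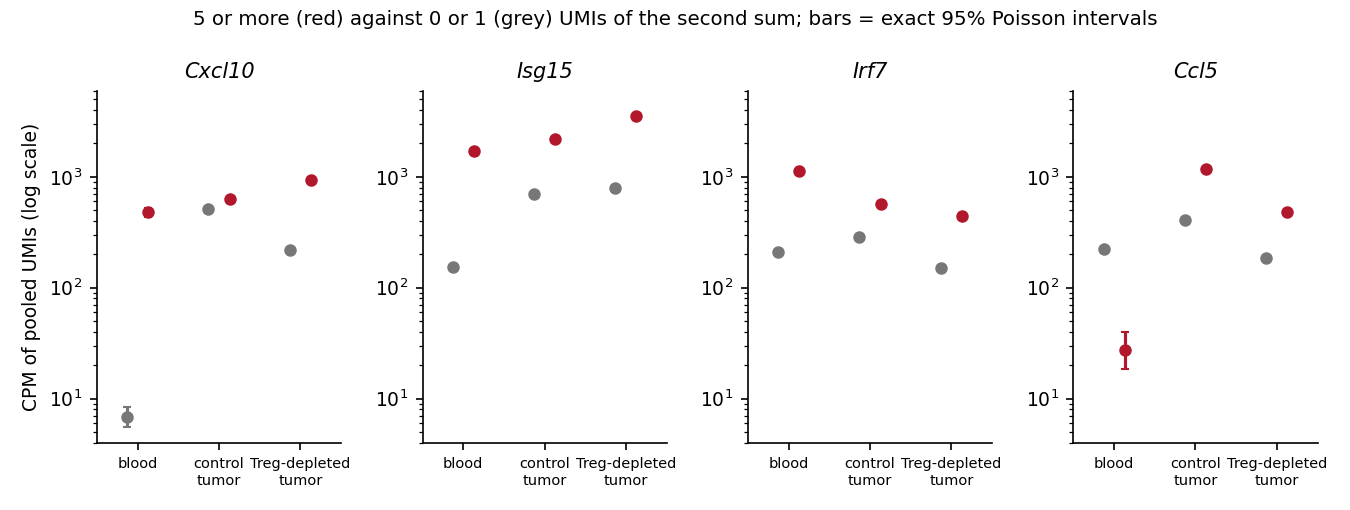
Levels of 4 genes (CPM of pooled UMIs, log scale, exact 95% Poisson intervals) in barcodes with 5 or more (red) and 0 or 1 UMIs (grey) of the second sum, in the blood, control tumor and Treg-depleted tumor libraries. Cxcl10 differs by 6.13 on the log2 scale in blood and by 0.30 in the control tumor; Ccl5 differs by -3.02 in blood and by 1.52 and 1.39 in the tumors.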

How the data were processed

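Single-cell RNA was measured in 3 libraries made with a Chromium 3' v2 kit, per the labels' protocols. The submitters' processing notes name Cell Ranger 1.2 and mm10. The deposited matrices hold UMI counts, not normalized, over 27998 genes for 737280 barcode sequences, empty droplets included, and cell barcodes were taken by the filters in the report; library totals were 22944387 (blood), 42493416 and 23291061 UMIs, and the kept blood barcodes held 86.4% of theirs. The choice of members and of the 33 gene lists (396 of 405 genes found) was made with earlier results of these data known.

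UMIs were pooled over a set of barcodes and scaled to its total (CPM). Intervals are exact and at 95%, and cover counting error only: Poisson for levels, Clopper-Pearson for shares and conditional binomial for log2 ratios. A count of 0 was set to a floor of 3 counts for a ratio, and no ratio is given where both sets were at or under it. Named genes were the genes of the rule, the 5 markers, the 15 largest and 15 smallest ratios among genes of mean 50 CPM or more whose higher set had 20 UMIs or more, and per list up to 4 of the highest mean and the 2 of the largest difference. Outside that rule, Uba7, Bst2, Tap1, Irf1, Irf9, Cxcl9, Ifnb1, Ace, Treml4, Nr4a1, C1qa and the lineage markers Cd3e, Ncr1 and Ltf, all genes of the lists, were named after their values were seen, as were the genes so marked in the report. Some genes that the rule names are not reported here. Of 27998 identifiers, 27722 were in GENCODE M21 (GRCm38). Promoters were matched by symbol or synonym. No doublets were removed in the main values; leaving out the 246 highest Scrublet scores (scanpy 1.11.5) was an alternative. The ratio step was tested on simulated counts. Python 3.11.15, numpy 2.4.6, pandas 2.3.3 and scipy 1.17.1 were used.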

Additional observations from a re-analysis of the deposited data

Results flagged for a closer look

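The log2 difference of Ccl5 between barcodes high and low in the second sum had opposite signs in the libraries: it was -3.02 in blood, 1.52 in control and 1.39 in Treg-depleted tumor. The difference between libraries was not tested, since each group has 1 library. In blood, Ccl5 stood at 27.7 against 224 CPM, and 28 UMIs stood behind the former. Without barcodes that carried markers of other lineages it stood at 27.7 against 20.9 CPM, a log2 difference of 0.41 (-0.26 to 1.01), so its direction in blood depended on those barcodes.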

How the results depend on the processing

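Over 16 alternatives, 1 of them (without barcodes of other lineages) chosen after seeing the data, no value that kept the minimum level reversed past a 2-fold difference; Ccl5 fell under the minimum in that alternative. Differences near 0 changed sign in some alternatives, among them those of H2-Ab1 (-0.19 to 0.46), Cd74 (-0.10 to 0.40) and Irf8 (-0.18 to 0.23). The share of interferon-high barcodes was 9.51% with a second sum of at least 3, 3.58% with at least 8 and 6.33% with at least 10 per 10000 UMIs. The median log2 difference of the interferon genes was 1.39 with a second sum of at least 3, and the number of them at least 2-fold higher ran from 49 to 67. Genes at least 2-fold higher numbered 265 at a minimum mean of 10 CPM. Genes at least 2-fold lower were less stable: 12 with a second sum of at least 3, 86 with at least 8, 53 without MHC class II-high barcodes, 12 at a minimum of 50 CPM, 153 at 10 CPM, and 27 without barcodes of other lineages. Scaling by the median gene ratio shifted every log2 difference by 0.11, and scaling without interferon and rule genes by 0.04. No paired analysis was possible because each group has 1 library. At a median of 4023 UMIs per barcode, genes of a few CPM are missed in most single barcodes, so levels rest on pooled counts.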
